A study of Saccharomyces cerevisiae with 8 samples.

Results

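Promoter directionality was compared between the 6 native elongating transcript sequencing (NET-seq) libraries of the cac1, cac2 and cac3 mutants of budding yeast and the 2 wild-type libraries, which together are the 8 libraries of the series. NET-seq sequences the RNA that comes down with a tagged subunit of RNA polymerase II, so that its reads mark transcription in progress. The mutants were the strains YSB3062 (cac1), YSB3063 (cac2) and YSB3064 (cac3), and the wild type was YSC0001. All carried Rpb3-FLAG, grew in YPD, a rich glucose medium, and were taken at mid-log phase, as 2 replicates a group that the labels call biological. The wild-type name has another prefix than the mutant names and no source used here says that the strains otherwise match, so that the mutation and any other strain difference cannot be told apart. In bulk samples, fewer cells of a type and less RNA per cell cannot be told apart either.

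CAF-I is the histone chaperone that brings new histones H3 and H4 to DNA behind the replication fork. Its subunits are encoded by RLF2 (also called CAC1), CAC2 and MSI1 (also called CAC3). Yeast promoters sit in nucleosome-poor gaps from which polymerase can leave in both directions, and the transcript that runs away from the gene is often a cryptic unstable transcript (CUT), ended early and degraded, or a stable unannotated transcript (SUT). How readily each direction is used is known to depend in part on the nucleosomes at the edges of the gap.

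Directionality was the log2 ratio of 2 read densities at each feature of the table of open reading frame transcripts (ORF-Ts): the density over the feature's span, and that in a 600 bp window on the opposite strand, which reaches 500 bp upstream and 100 bp into the feature from its 5′ end. The strand and extent of that window were inferred from the values. A value of 0 means equal densities, and a larger value means more transcription along the gene than away from it. The table held 5498 features on 16 chromosomes, 5169 ORF-Ts and 329 others, of which 5036 had at least 80 span reads and 80 window reads summed over the 8 libraries and were analysed, while 462 did not. Since 6 of the 8 libraries were mutant, a sparse window passed that minimum more easily when the mutants held its reads.

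Features were sorted by what else is annotated on the opposite strand of the window. No annotated feature lay there for 2222 features (1813 analysed), an ORF-T started there for 1953 (1940), a CUT or SUT for 858 (842) and another feature for 124 (122), and 341 (319) had a feature that crossed the window without starting in it. The window of a gene with nothing annotated was sparse, with a median of 31.9 reads per library, against 94.1 where a CUT or SUT started and 159.0 where an ORF-T started. Depth ran from 1826619 to 6658421 span reads in the mutants, against 1757325 and 7191544 in wild type. Window reads equalled 18.1% to 19.7% of span reads in the mutants, against 18.6% and 18.8% in wild type, so that the total of opposite-strand reads was much the same. Empty windows numbered 1 to 13 in each mutant library, against 126 and 19 in wild type.

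Over all analysed features the mutants were slightly less directional. The median directionality was 0.98 and 1.01 in cac1, 0.88 and 0.90 in cac2, 1.05 and 1.03 in cac3, against 1.10 and 1.11 in wild type. All 6 mutant libraries lay below both wild-type libraries, by 0.13 on average (0.98 ± 0.07, SD, n = 6, against 1.10 ± 0.01, SD, n = 2). The 2-sided exact permutation test over the 28 splits of 6 against 2 libraries gave p = 0.0714, where the smallest it can give is 0.0357. With a minimum of 400 reads, which leaves 3215 features with fuller windows, the mutants exceeded wild type by 0.013 (p = 0.786, exact permutation). The authors' deposited table, in which natural logs set each mutant ratio against that of the wild-type library with its replicate number, had medians of -0.0903 and -0.071 in cac1, -0.145 and -0.151 in cac2, -0.0466 and -0.063 in cac3, with 55.6% to 67.4% of features below 0.

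The lower directionality lay mainly in genes with no annotated feature on the opposite strand. Their median was 2.10 and 2.19 in cac1, 2.01 and 2.12 in cac2, 2.35 and 2.38 in cac3, against 2.73 and 2.85 in wild type, a difference of -0.60 with no overlap between the groups. Where an ORF-T started in the window, it was 0.11 and 0.12 in cac1, 0.06 and -0.02 in cac2, 0.08 and 0.05 in cac3, against 0.04 and 0.03 in wild type, and the groups overlapped. Where a CUT or SUT started, the 6 mutant libraries ran from 0.85 to 1.05, against 1.02 and 0.97 in wild type, a difference of -0.03 (p = 0.714, exact permutation). Where a feature crossed the window without starting in it, they ran from 0.77 to 0.91, against 1.00 and 1.03 in wild type, a difference of -0.19. The change at genes with nothing annotated was more negative than at divergent ORF-Ts by 0.64 and than at divergent CUTs and SUTs by 0.57, each with an exact permutation p of 0.0357 and an adjusted p of 0.0476 over 4 differences between classes. The minimum of 80 reads kept 1813 of 2222 genes with nothing annotated, against 1940 of 1953 at ORF-Ts and 842 of 858 at CUTs and SUTs. It kept a sparse window more easily when the mutants held its reads, so that these tests are not free of that selection. Replicate numbers were taken to pair the libraries, and only 16 of the splits keep 1 wild-type library per number. Over those 16 both differences had p = 0.0625 (exact permutation), the smallest they can give, so that no difference between library medians can pass when the pairing is kept. Taken class by class, none of 9 classes passed the Benjamini-Hochberg adjustment, the smallest adjusted p being 0.0803. With the minimum of 400 reads the 2 differences between classes were -0.32 and -0.31 (p = 0.0357 each, exact permutation), and with all libraries thinned to the depth of the shallowest they were -0.60 and -0.53.

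**Figure D1:**
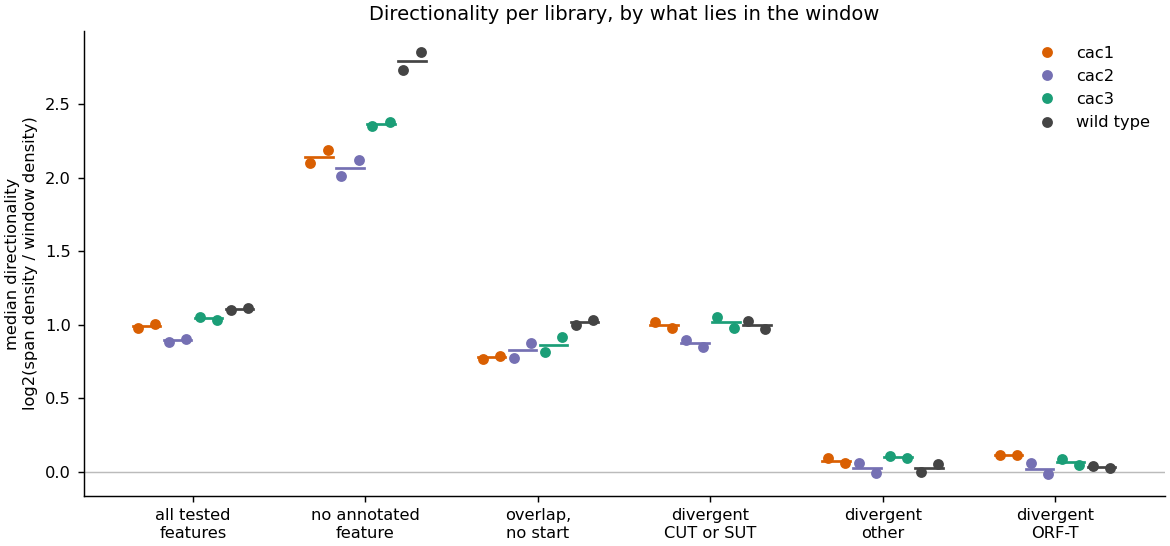
Median directionality (log2 of span density over window density) of each library, by what is annotated in the opposite-strand window; points are libraries and bars are group means. For genes with no annotated feature in the window the 6 mutant libraries lie between 2.01 and 2.38, below wild type at 2.73 and 2.85, while for divergent ORF-Ts all 8 libraries lie between -0.02 and 0.12.

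That difference was in the window and hardly in the gene. Among genes with nothing annotated the median window level was 9.21 and 8.78 RPM (relative to the span reads of each library) in cac1, 9.82 and 8.78 in cac2, 7.87 and 7.19 in cac3, against 5.82 and 5.44 in wild type. Relative to span reads without the TMM scaling of those RPM, the mutants exceeded wild type by 0.63 on the log2 scale in the window level. On that basis they exceeded it by 0.05 in the span level per kilobase (each p = 0.0357, exact permutation). With TMM scaling, the median fitted changes of these genes were 0.57 for windows and -0.0009 for spans, so that the span difference depended on the scaling. The log2 differences in median level in the following paragraphs are also without that scaling. These windows took 13.4% and 12.5% of all window reads in cac1, 13.2% and 12.0% in cac2, 11.6% and 10.8% in cac3, against 9.7% and 9.2% in wild type. Replicate 1 of cac1 and of wild type, of nearly the same depth, had 13.4% and 9.7%. Replicate 1 of cac3 and replicate 2 of wild type, also near in depth but of unlike number, had 11.6% and 9.2%. These are single libraries, and the part of depth in this share was not tested. The difference in directionality was alike with a tandem upstream neighbour (-0.58 over 1391 genes) and with a divergent one that starts outside the window (-0.69 over 418 genes).

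The difference varied with the level of the gene as well. In 4 equal groups of features by span density, lowest to highest, mutants minus wild type was 0.11, -0.04, -0.11 and -0.28, and the highest group differed from the lowest by -0.39 (p = 0.0357, exact permutation, adjusted p = 0.0476). Span density was averaged over the 8 libraries, of which 6 were mutant, and also enters directionality. These groups are therefore not independent of the readout. In the highest group the 6 mutant medians ran from 2.53 to 2.76, against 2.89 and 2.94 in wild type. In the lowest group they ran from -0.16 to 0.00 in the mutants, against -0.17 and -0.18 in wild type, and span level there was higher by 0.18 on the log2 scale. Within genes with nothing annotated the difference was -0.42, -0.54, -0.65 and -0.78 from the lowest to the highest level group, while the log2 window level was higher by a like amount in each (0.60, 0.64, 0.64 and 0.66). Within divergent ORF-Ts it was 0.15, 0.07, 0.00 and -0.03.

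The difference also followed how many reads the window held, in 5 equal groups that were chosen after the data were seen. Window reads also enter directionality, and 6 of the 8 libraries they were summed over were mutant. Grouping and readout are therefore not independent. From the group with the fewest window reads (80 to 220 over 8 libraries) to that with the most, mutants minus wild type was -0.88, -0.44, -0.11, 0.02 and 0.11. In the sparsest group, directionality was 2.75 and 2.87 in cac1, 2.70 and 2.85 in cac2, 3.09 and 3.17 in cac3, against 3.68 and 3.90 in wild type. The 1013 windows of that group were higher by 0.85 on the log2 scale, and the spans of the same genes by 0.07. The 42 spans that were themselves that sparse were higher in the mutants by 0.84 (p = 0.0714, exact permutation), with 1 of the 6 mutant libraries between the wild-type libraries. These 42 spans were chosen by reads summed over the 8 libraries, of which 6 were mutant. They were taken from all 5498 features with no minimum of window reads, while the 1013 windows were from the 5036 analysed. The part of sparse coverage in the result was not tested, and thinning to equal depth leaves sparse windows sparse.

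**Figure D2:**
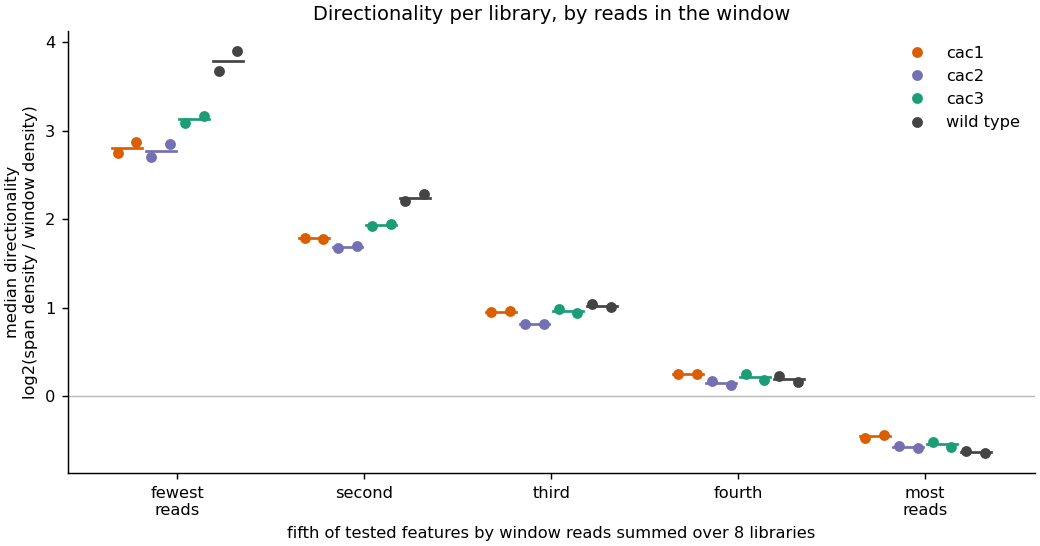
Median directionality of each library in 5 equal groups of features by window reads summed over the 8 libraries; points are libraries and bars are group means. The mutants lie below wild type by 0.88 in the sparsest group and above it by 0.11 in the fullest. The window reads that form the groups also enter directionality.

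Feature by feature, the span and window counts of each library entered 1 edgeR quasi-likelihood fit, in which a change of directionality is the log2 change of the span-to-window ratio in the mean of the 3 mutants over wild type. At a Benjamini-Hochberg adjusted p under 0.05, 830 features were less directional in the mutants (16.5% of those tested) and 195 more (3.87%). The calls leaned on the deep wild-type library: without wild-type replicate 2, edgeR called 45 lower and 4 higher (658 and 208 at an unadjusted p under 0.05), and without wild-type replicate 1 it called 667 and 102. Leaving out 1 mutant library gave 675 to 790 lower and 121 (without cac3 replicate 1) to 190 higher. With replicate number as a block the counts were 1139 and 401. When span and window counts were scaled apart, the median change of all features moved from -0.09 to 0.01 and the calls became 652 lower and 366 higher, so that the higher calls were 36.0% of all calls in place of 19.0%. Without any test, the 6 mutant libraries lay all below both wild-type libraries at 1087 features (21.6%) and all above at 491 (9.75%).

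Genes with nothing annotated in the window gave 612 of the 830 lower calls, or 33.8% of the 1813 tested, and 19 higher ones, with a median change of -0.53. Divergent CUT or SUT promoters gave 78 lower (9.26%) and 43 higher, and divergent ORF-T promoters 81 lower (4.18%) and 100 higher. Features crossed by another without its start gave 51 lower (16%) and 26 higher. Without wild-type replicate 2 the lower calls were 34 of 1813 with nothing annotated, 3 of 842 at CUTs and SUTs and 4 of 1940 at ORF-Ts. With spans and windows scaled apart they were 497, 59 and 52, and the higher calls 33, 90 and 192. Among divergent ORF-Ts the lower calls were 33 of 218 (15.1%, median -0.13) where the other gene starts 400 to 500 bp away, and 15 of 885 (1.69%, median 0.05) where it starts 100 to 200 bp away, a difference that was not tested. Of the 830 lower features, the window was higher at an adjusted p under 0.05 and the span not called in 568, the window higher and the span lower in 85, both higher in 47, only the span lower in 61 and neither called in 69. Of the 195 higher features, only the span was higher in 94, only the window lower in 59 and both in 15. On their own, 937 windows were higher (18.6%) and 232 lower (4.61%; 405 with the replicate block), and 535 spans were higher (10.6%) and 373 lower (7.41%; 631 with the block). Without wild-type replicate 2 these were 79 and 11 windows and 57 and 41 spans, and without wild-type replicate 1 the lower windows were 115 and the spans 317 and 173; without cac3 replicate 1, 143 windows and 231 spans were lower.

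**Figure D3:**
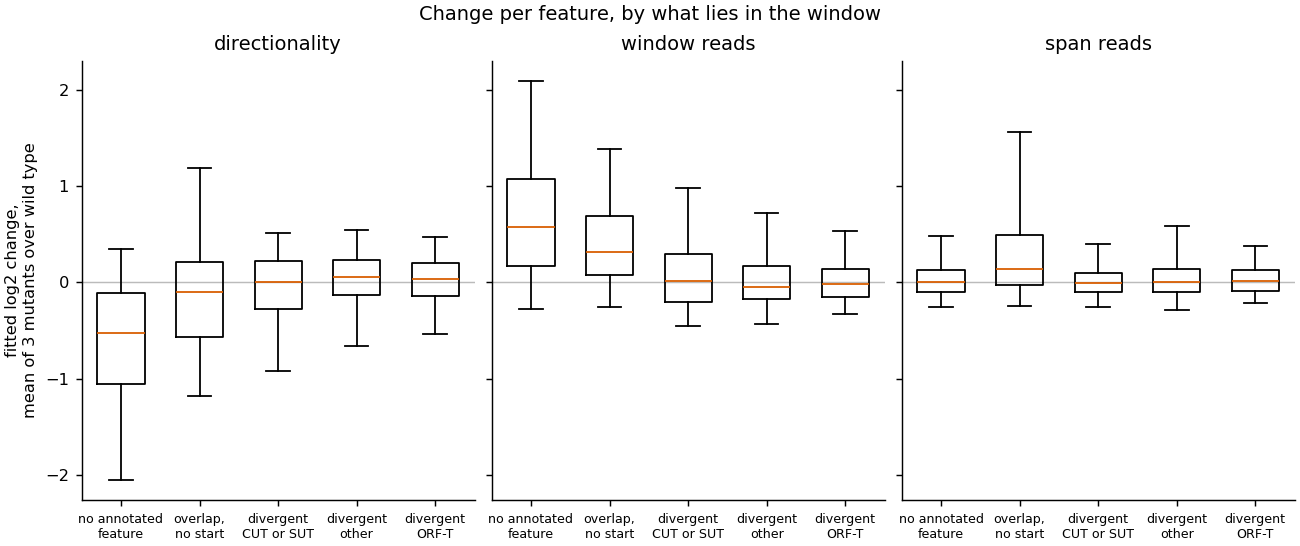
Fitted log2 change (mean of the 3 mutants over wild type) of directionality, window reads and span reads per feature, by what is annotated in the window; boxes are quartiles, lines medians and whiskers the 5th and 95th percentiles of features. For genes with no annotated feature the median directionality change is -0.53 and the median window change 0.57, with the span median at 0.00.

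The features ranked from here on were called and had at least 20 span reads and 20 window reads per library on average. They also had all 6 mutant libraries on one side of both wild-type libraries. Sparser features are not ranked, and some of them changed as much. With 6 of the 8 libraries mutant, a window passed the minimum of 20 more easily when the mutants held its reads. The counting intervals given below make no allowance for that or for the choice of the largest changes. Among the ranked features that of ISC10 and SLO1, of which ISC10 is a meiosis gene, fell most (chromosome V, 549701 to 551157, minus strand, as the deposited files give coordinates, in a genome build not given in these sources). Its window, with nothing annotated, held 19 and 45 reads in cac1, 21 and 41 in cac2, 46 and 39 in cac3, against 1 and 3 in wild type. Relative to depth that is 18.6 times the wild-type level in the mutants (95% counting interval 7.16 to 68.9), while its span was called neither way (71.8 to 80.1 RPKM in the mutants, against 84.3 and 74.0 in wild type). Directionality was 2.03, 2.11, 2.12, 1.96, 2.76 and 2.90 in the cac1, cac2 and cac3 libraries, against 5.86 and 6.47 in wild type, a change of -4.22 (SE 0.32, edgeR adjusted p = 1.18e-04).

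RPL22A encodes a protein of the large ribosomal subunit (chromosome XII, 263137 to 264065, plus strand). Its window held 20 and 56 reads in cac1, 33 and 38 in cac2, 49 and 39 in cac3, against 2 and 3 in wild type, and its directionality fell by 4.21 (SE 0.36, edgeR adjusted p = 1.18e-04). The groups were far apart, at 5.12 to 6.52 in the mutants, against 8.57 and 10.31 in wild type, so that the gene strand still dominated in all 8 libraries. At BPH1 on chromosome III (179410 to 186050, plus strand) it did not: directionality was -0.28 and -0.52 in cac1, -0.87 and -0.94 in cac2, 0.34 and -0.50 in cac3, against 1.63 and 2.85 in wild type. In 5 of the 6 mutant libraries the opposite strand was thus the denser one, and the change was -3.05 (SE 0.36, edgeR adjusted p = 4.55e-04).

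The other features among the 10 ranked features that fell most were HOS2 (-4.13), a histone deacetylase, the feature of YMR075C-A and the cohesin factor PDS5 (-3.71), MRPL22 (-3.40) and MRP13 (-2.99), proteins of the mitochondrial ribosome, BCY1 (-3.07), the regulatory subunit of protein kinase A, the feature of YJR120W and the ATP synthase subunit ATP2 (-2.99), and the enolase ENO1 (-2.84). Their windows held 12 to 84 reads in each mutant library, against 1 to 15 in each wild-type library. ENO1 was the one of them whose span fell too, to 85.4 to 109.0 RPKM in the mutants, against 161.0 and 145.0 in wild type. The window of YJR120W and ATP2 holds the start of SUT649, 124 bp away, and that of BCY1 is crossed by another feature.

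HOS2 and IME4, the RNA adenosine methyltransferase of meiosis, are divergent neighbours whose starts lie 340 bp apart on chromosome VII. HOS2 fell by 4.13 with 14 and 32 window reads in cac1, 21 and 33 in cac2, 37 and 37 in cac3, against 1 and 2 in wild type (20.5 times the level, 95% counting interval 6.89 to 100). IME4, on the strand that HOS2's window counts, was the ranked feature whose directionality rose most, by 3.68 (SE 0.43, edgeR adjusted p = 4.44e-04). Its span level was 8.26 and 4.69 RPKM in cac1, 5.70 and 6.48 in cac2, 3.46 and 3.73 in cac3, against 0.887 and 0.363 in wild type, a rise of 3.39 on the log2 scale. The opposite strand dominated IME4 in all 8 libraries, at -4.81 to -3.11 in the mutants, against -6.65 and -7.93 in wild type. Because the start of IME4 lies inside the window of HOS2, the 2 changes share reads.

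**Figure D4:**
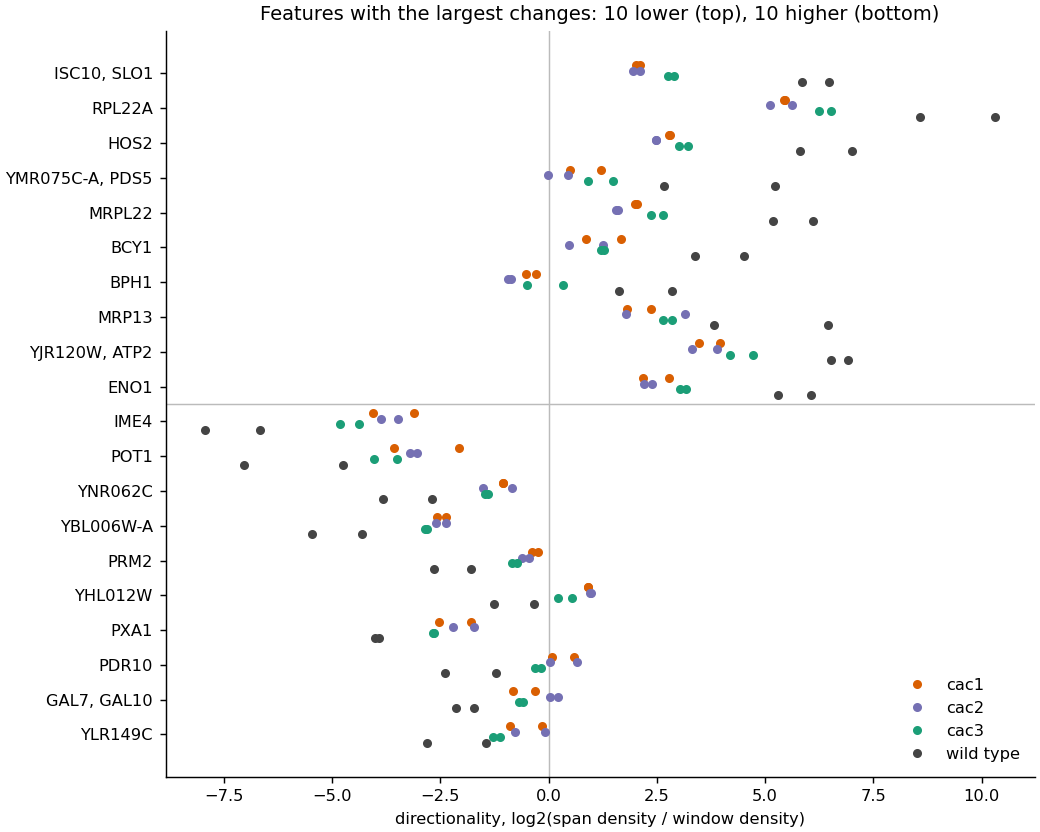
Directionality in each library (points) of the 10 features that fell most, above the line, and the 10 that rose most, below it, among called features with at least 20 span and 20 window reads per library on average. They were also chosen for having the 6 mutant libraries on one side of both wild-type libraries, so that this separation is not a result.

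The spans of the other 9 features that rose were all higher at an edgeR adjusted p under 0.05. POT1, the peroxisomal thiolase of fatty acid breakdown, rose by 2.97 and its span level was 7.94 and 3.80 RPKM in cac1, 4.74 and 4.63 in cac2, 3.92 and 2.21 in cac3, against 1.31 and 0.242 in wild type. PXA1, a subunit of the peroxisomal fatty acid transporter, rose by 1.73, with a span level of 10.5 to 22.1 RPKM in the mutants, against 3.77 and 4.08 RPKM in wild type. PRM2, a pheromone-regulated gene, rose by 1.90, PDR10, a drug transporter, by 1.72, and YNR062C, YHL012W and YLR149C by 2.29, 1.76 and 1.66. YBL006W-A rose by 1.96 and is the divergent neighbour, 228 bp away, of SLA1, a gene of the cortical actin cytoskeleton, which fell by 1.67. Each starts inside the window of the other, so that their changes share reads. The joint feature of the galactose genes GAL7 and GAL10, divergent from GAL1, rose by 1.67, with its window at 3.97 to 8.67 RPM in the mutants, against 8.73 and 9.01 in wild type. Of the 20 features, 7 kept their call without wild-type replicate 2 (ISC10 with SLO1, RPL22A, HOS2, MRPL22, ENO1, YBL006W-A and PDR10), and 13 lost it with their direction kept.

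Directionality also fell at some promoters whose window holds another transcript. Among the ranked features, the largest falls at divergent CUTs and SUTs after ATP2 were DOT6 (-1.63), a repressor of ribosome biogenesis genes whose window holds the start of SUT095, and the small nucleolar RNA SNR36 (-1.61). At divergent ORF-Ts, after HOS2, they were YBL028C (-1.51), opposite RPL19B, and YAP1802 (-1.43), a clathrin adaptor. At other divergent features they were GAT1 (-1.69), a nitrogen transcription factor, SLA1 (-1.67), which shares reads with YBL006W-A, and the feature of ATP14 (-1.08). Among features crossed by another they were, after BCY1, the transcription factor IXR1 (-2.76) and YER158C (-1.94). PPT1, a protein phosphatase whose start lies 148 bp from that of SUT129 and whose promoter is a common reporter of divergent transcription, was at 0.07 and 0.34 in cac1, 0.33 and 0.00 in cac2, 0.09 and 0.16 in cac3, against -0.31 and 0.06 in wild type. The groups overlapped, and its change of 0.25 (SE 0.14) did not pass (edgeR adjusted p = 0.252).

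The deleted genes check the labels, and their spans were lower in their own mutants but not empty. RLF2 was at -1.65 and -1.37 in cac1, where its span held 15.3 and 14.6 RPKM, against 0.13 and 0.53 with 41.7 and 39.8 in wild type. CAC2 was at -4.50 and -4.67 in cac2, with a span of 21.0 and 21.5, against -3.13 and -3.38 with 69.6 and 60.6 in wild type. MSI1 had a span of 37.2 and 31.9 in cac3, against 75.6 and 77.9 in wild type. In all 3 cases the targeted gene was lowest in the libraries labelled as its mutant, and some reads remained; whether the counted spans reach past the deleted parts is unknown here. MSI1 also fell in the mean of the mutants, by 1.88 (SE 0.23, edgeR adjusted p = 6.03e-04), with 5.75 to 12.2 RPM in its window in the mutants, against 2.91 and 2.86 in wild type; in cac1 and cac2, which carry the gene, it fell by 1.66 and 1.82.

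Genes of cytosolic ribosomal proteins, which are among the most transcribed of growing yeast, were often less directional in the mutants. Of 131 measured, 125 were tested, 71 fell (56.8%, beside 16.5% of all features) and 0 rose (82 and 0 at an unadjusted p under 0.05 in edgeR, 41 and 0 by DESeq2, 60 and 0 by limma), with a median change of -0.88, beside -0.09 over all features. Without wild-type replicate 2, 12 of them fell in edgeR, and without wild-type replicate 1, 51. Their median directionality was 5.22 and 5.42 in cac1, 5.27 and 5.36 in cac2, 5.64 and 5.78 in cac3, against 6.23 and 6.34 in wild type. Their median window level was 10.8 and 10.1 RPM in cac1, 12.6 and 9.92 in cac2, 9.24 and 8.82 in cac3, against 6.98 and 6.72 in wild type. Of the 71 with nothing annotated in the window 52 fell (73.2%, median -1.24), against 179 of 433 other such genes in the highest level group (41.3%, median -0.60). Of 20 opposite a CUT or SUT 9 fell (45.0%), and of 30 opposite an ORF-T 9 (30.0%). In the highest level group of those 2 classes, with ribosomal protein genes not removed, 42 of 266 (15.8%) and 36 of 439 (8.2%) fell. RPL13B fell by 4.12 (SE 0.41) with 12 and 32 window reads in cac1, 14 and 23 in cac2, 25 and 30 in cac3, against 0 and 3 in wild type (16 times the level, 95% counting interval 5.36 to 78.5), and RPL33B by 2.90; their windows held under 20 reads per library on average, so that they were not ranked above. Of 61 mitochondrial ribosomal protein genes, taken by symbol outside the 16 lists, 18 fell (29.5%), and 1 did without wild-type replicate 2. That share lies between the 16.5% of all features and the 33.8% of those with nothing annotated in the window. Many ribosomal protein genes have near-identical copies, and no source used here says how reads shared between copies were counted, so their span values are uncertain. This gene list and those below were chosen with earlier results of these data known, so that their shares describe the lists and are no test.

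In glycolysis and fermentation 5 of 13 tested genes fell (38.5%, beside 16.5% of all features; median -0.33), and 1 did without wild-type replicate 2. Besides ENO1 they include the glyceraldehyde-3-phosphate dehydrogenases TDH2 (-1.46) and TDH3 (-1.27), which also have near-identical copies. ENO1, TDH2 and TDH3 have nothing annotated in the window, where 33.8% of genes fell, and the list was not compared within that class. Ribosome biogenesis, with 7 of 46 falling (15.2%) and a median of -0.08, was near the 16.5% and the -0.09 of all features. It included GAR1 (-1.78), a protein of pseudouridylation particles, NOP12 (-1.14) and TIF6 (-1.09), which act in large-subunit assembly.

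Of 4 lists of chromatin genes, 2 lay near the 16.5% of all features that fell and 2 above it. Among genes with nothing annotated in the window, a class that holds several genes named here, 33.8% fell. The lists were not compared within that class, so that their shares cannot be told apart from its share. Of 19 remodelling and silencing genes 7 fell (36.8%, median -0.21; 1 without wild-type replicate 2), among them SNF2 (-2.32), CHD1 (-1.84) and RSC2 (-1.82), the first 2 being remodelling ATPases and the other a subunit of the RSC remodeller. SNF2, too sparse in its window to be ranked among the divergent ORF-Ts above, had 8 and 14 window reads in cac1, 13 and 13 in cac2, 15 and 16 in cac3, against 1 and 5 in wild type. Of 13 other histone chaperone genes and genes of H3 acetylation 4 fell (30.8%; 0 without wild-type replicate 2), with SPT6 (-1.67), SCM3 (-1.27), the chaperone of the centromeric H3, and HPC2 (-1.11) of the HIR complex. Of 11 histone genes 2 fell (18.2%), near the share of all features: HTB1 by 1.13, with its window at 12.6 to 15.6 RPM in the mutants, against 3.49 and 8.58 in wild type, and HTZ1, the H2A variant, by 0.42, with its span at 106.0 to 117.0 RPKM, against 151.0 and 150.0 RPKM in wild type. Of 14 histone deacetylase and methyltransferase genes 2 fell (14.3%), also near that share, HOS2 and RPD3 (-1.29).

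**Figure D5:**
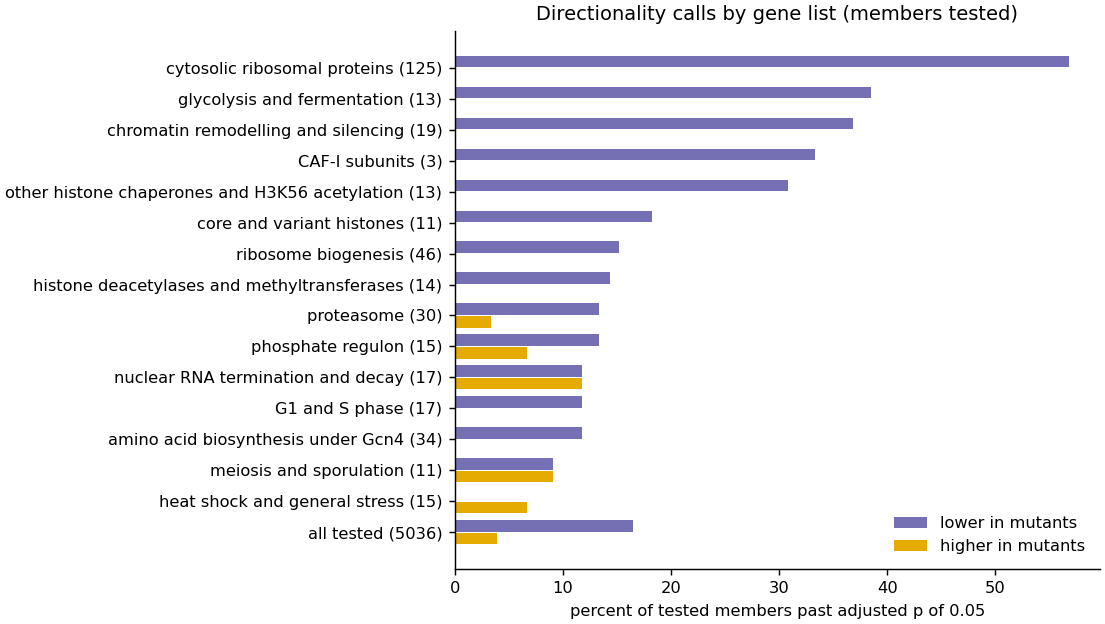
Percent of the tested genes of each list (number tested in brackets) whose directionality was lower or higher in the mutants at an edgeR adjusted p under 0.05. Ribosomal protein genes reach 56.8% lower, against 16.5% of all tested features. Several lists hold fewer than 15 tested genes. The lists were chosen with earlier results of these data known and are not matched for what is annotated in the window.

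In each of the remaining lists the share that fell was below the 16.5% of all features, at 0 to 13.3%, and nothing is read from their counts. In nuclear RNA termination and decay 2 of 17 fell, the phosphatase SSU72 of the cleavage and polyadenylation factor (-0.96) and the exosome cofactor LRP1 (-0.86), and 2 rose, of which the exosome subunit RRP40 rose most (0.96). RRP40 faces RIB4, 188 bp away, and its window was at 52.6 and 62.8 RPM in cac1, 52.8 and 52.1 in cac2, 82.7 and 83.8 in cac3, against 122.0 and 110.0 in wild type. In amino acid biosynthesis 4 of 34 fell and 0 rose (4 and 5 with spans and windows scaled apart, 7 and 5 with the replicate block, 1 and 0 by DESeq2, 4 and 0 by limma, 10 and 5 at an unadjusted p under 0.05 in edgeR), with the homocitrate synthases LYS20 (-1.54) and LYS21 (-0.93) and the aromatic pathway enzyme ARO3 (-1.41). In the proteasome 4 of 30 fell, with PRE7 (-1.99), RPN3 (-1.77) and RPT5 (-1.43), and 1 rose. The cyclins CLB6 (-1.26) and CLN2 (-1.18) were the 2 of 17 genes of G1 and S phase that fell. In meiosis and sporulation SPS4 fell by 2.26 and IME4 rose, of 11 tested. In heat shock and stress 0 of 15 fell in edgeR (0 also at an unadjusted p under 0.05 and by DESeq2 and limma, but 1 with the replicate block), and the chaperone SSA1 rose by 0.81. In the phosphate list PHO84 (-1.58) and PHO2 (-0.52) fell and the acid phosphatase PHO5 rose by 0.73, of 15 tested. Without wild-type replicate 2, PHO84 was the 1 gene of all the lists in this paragraph that kept its call.

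Against the same 2 wild-type libraries, each mutant gave more lower than higher calls: 668 lower and 173 higher in cac1 (13.3% and 3.44%), 772 and 106 in cac2 (15.3% and 2.1%) and 279 and 32 in cac3 (5.54% and 0.635%). With the replicate block these were 947 and 403, 1106 and 227, and 570 and 196. Without wild-type replicate 2 they were 51 and 6, 92 and 6, and 1 and 1. Without 1 or the other library of the mutant itself, they were 408 and 72 or 334 and 85 in cac1, 403 and 40 or 403 and 55 in cac2, and 70 and 2 or 92 and 7 in cac3. The medians over all features were -0.07, -0.18 and -0.05. Because the 3 comparisons share their wild-type libraries, the 250 features lower and 27 higher in all of them do not count as 3 separate observations. Tested directly in the fit without a replicate block, few differences between mutants passed. In that fit edgeR called 2 lower and 1 higher in cac1 against cac3 (0.0397% and 0.0199%), 2 and 3 in cac2 against cac3 (0.0397% and 0.0596%), and 2 and 1 in cac1 against cac2 (0.0397% and 0.0199%). With the replicate block the calls were more, at 54 and 52, 75 and 16, and 3 and 5. The unadjusted p was under 0.05 at 495 features lower and 52 higher in cac2 against cac3, so that a call did not pass at many features where the 2 mutants may still differ.

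PHO84, the high-affinity phosphate transporter, was at -0.33 and 0.16 in cac1, 0.26 and 0.15 in cac2, 2.74 and 2.65 in cac3, against 2.39 and 2.60 in wild type. It was lower in cac1 than in cac3 by 2.71 (SE 0.20, edgeR adjusted p = 1.2e-04) and in cac2 than in cac3 by 2.50 (SE 0.20, edgeR adjusted p = 2.0e-04). Its span held 23.2 to 33.2 RPKM in cac1 and cac2 and 144.0 and 139.0 in cac3, against 109.0 and 118.0 in wild type. FRE7, a metalloreductase opposite SUT764, was at 1.19 and 0.97 in cac1, 0.97 and 1.33 in cac2, -1.15 and -0.91 in cac3, against 0.64 and 0.53 in wild type, and its span differed likewise. In the fit without a block, the remaining calls between mutants were CRR1, a gene of spore wall formation, in cac2 against cac3, and RLF2, CAC2 and SNR85. RLF2 and CAC2 are deleted genes, and SNR85 is a small nucleolar RNA whose window contains the start of CAC2.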

How the data were processed

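The span columns hold whole read counts as deposited. Window values were deposited as estimated counts, with 0.5 entered by the authors for empty windows and read here as 0. The authors also deposited the ratio of both, an RPKM of each (the window RPKM on a width shortened to 104 to 600 bp in all but 1553 windows) and, in the mutant tables, natural log values that set each mutant ratio against the wild-type library with its replicate number. The sources used here name no aligner, genome build or read filter. Window strand and extent were inferred. Among 1657 windows with nothing annotated and a tandem upstream neighbour, window reads did not rise with the shortened width (Spearman -0.213). In 1039 divergent ORF-T windows under 400 bp wide, the median was 1.68 times the reads expected from annotated features in the full 600 bp. The median share of these expected in the shortened width was 0.0. So 600 bp was used, though neither check fixes the exact extent.

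Library directionality used log2 densities with 0.5 added to both counts; groups were compared by exact 2-sided permutation. Calls came from edgeR 4.0.16 in R 4.3.3 (quasi-likelihood, all 8 libraries, 16 columns, a coefficient per library, a span term and span-by-mutant terms, Benjamini-Hochberg adjustment over 5036 features; biological coefficient of variation 10.4%, residual degrees of freedom 4). Windows and spans were also fitted alone, with TMM scaling over spans (0.972 to 1.02). RPM and RPKM printed here are relative to the span reads so scaled. Differences between groups of libraries in the median log2 window or span level used span reads without that scaling. The span and window of 1 library were treated as separate counts. Intervals on ratios cover counting error only. Deviations of same-numbered libraries from their group means correlated at 0.293 to 0.447 in all 6 pairs of groups, so the numbers were taken to pair the libraries, as the authors' natural logs do; the main fit had no block. Scripts were tested on simulated counts. Alternatives used DESeq2 1.42.0 and limma 3.58.1. Features named were the 10 that fell and 10 that rose most among those called with at least 20 span and 20 window reads per library on average and no overlap between groups, up to 3 per class, up to 3 called per list, the deleted genes and PPT1. Members and the 16 gene lists were chosen with earlier results of these data known.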

Additional observations from a re-analysis of the deposited data

Results flagged for a closer look

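Between mutants, the edgeR fit without a replicate block called a difference in directionality at 6 features, by a test of the difference itself. Each value below passed an adjusted p of 0.05 in that fit. With the block the calls were 54 lower and 52 higher in cac1 against cac3, and 75 and 16 in cac2 against cac3. They were 3 and 5 in cac1 against cac2. PHO84 was lower in cac1 than in cac3 by a log2 change of -2.71 and in cac2 than in cac3 by -2.50. FRE7 was higher in cac1 than in cac3 by 2.10 and in cac2 than in cac3 by 2.21. CRR1 was higher in cac2 than in cac3 by 1.58 (1.5 and 1.54 in cac2, 0.11 and -0.21 in cac3, against 0.12 and 0.16 in wild type). RLF2, the gene deleted in cac1, was lower in cac1 than in cac3 by -2.22 and than in cac2 by -2.09. CAC2, the gene deleted in cac2, differed by -1.57 in cac2 against cac3 and by 1.57 in cac1 against cac2. SNR85, whose window contains the start of CAC2, differed by 2.45 in cac2 against cac3 and by -2.27 in cac1 against cac2, with 12 and 15 window reads in cac2, against 48 and 184 in wild type.

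The table of noncoding features was outside the comparisons above. The median log2 ratio of span over window density of its 756 SUTs was higher in the mutants by 0.14: -0.43 and -0.52 in cac1, -0.46 and -0.49 in cac2, -0.51 and -0.57 in cac3, against -0.64 and -0.63 in wild type (p = 0.0357, exact permutation). For its 874 CUTs the difference was -0.05 (p = 0.143, exact permutation). The p for SUTs is the smallest that the 28 splits can give, and neither p was adjusted. With the pairing of replicate numbers kept, the smallest possible is 0.0625, so that neither difference could pass.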

How the results depend on the processing

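Calls are given as lower and higher. DESeq2 gave 428 and 67 in the mean of the mutants, 328 and 62 in cac1, 403 and 45 in cac2, 63 and 5 in cac3, 67 and 369 for windows and 217 and 260 for spans. A minimum of 400 reads, with 3215 features tested, gave 214 lower in the mean, 155 lower in cac1, 202 and 70 in cac2, 61 and 19 in cac3, and 2 higher in cac1 against cac3. Scaling spans and windows apart gave 366 higher in the mean, 276 higher in cac1, 507 and 263 in cac2 and 49 higher in cac3. limma gave 111 higher in cac1, 122 and 9 in cac3, 1 lower in cac2 against cac3, and 0 and 0 in cac1 against cac2 where edgeR and DESeq2 each gave 2 and 1 (37 and 215 at an unadjusted p under 0.05). The replicate block gave 401 higher in the mean, 403 higher in cac1, 227 higher in cac2, 570 and 196 in cac3, 54 and 52 in cac1 against cac3, 75 and 16 in cac2 against cac3, 5 higher in cac1 against cac2, 405 lower windows and 631 lower spans; it changed no other call of a named feature than RLF2, which passed with it. Without further scaling, 141 windows and 219 spans were lower. The cause of these differences was not tested.

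Leaving out each library in turn gave 45 to 790 lower and 4 to 190 higher in the mean of the mutants (121 higher without cac3 replicate 1), 51 to 653 and 6 to 167 in cac1, 92 to 762 and 6 to 108 in cac2, 1 to 278 and 1 to 36 in cac3, 2 to 8 and 1 to 2 in cac1 against cac3, 1 to 2 and 1 to 3 in cac2 against cac3, and 0 to 2 and 0 to 1 in cac1 against cac2. It gave 11 to 235 lower and 79 to 902 higher windows, and 41 to 415 lower and 57 to 540 higher spans. The lowest counts against wild type came without wild-type replicate 2, where 1 wild-type library is assumed to vary like the other groups.

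Over the 16 splits that keep 1 wild-type library per replicate number (the pairing), an exact test added after seeing the data, p was 0.0625, the smallest possible, for windows with nothing annotated (-0.6006), features crossed by another (-0.1949), the lowest (0.112) and highest (-0.276) level groups, and the differences of windows with nothing annotated from ORF-Ts (-0.635) and from CUTs and SUTs (-0.5663) and of the highest from the lowest level group (-0.388). The difference in library medians was 0.0133 with a minimum of 400 reads, -0.3875 over full-width windows and -0.6006 over windows with nothing annotated. With a minimum of 400 reads it was 0.0298 for CUTs and SUTs, 0.0706 for other divergent features (0.1087 when thinned), -0.0924 for features crossed by another, and 0.0349, 0.0151 and -0.0807 in the 3 level groups above the lowest. Leaving out each library gave -0.6605 to -0.5407 for windows with nothing annotated, -0.2131 to -0.1781 for features crossed by another, 0.0995 to 0.1313 and -0.2994 to -0.2544 in the lowest and highest level groups, -0.6992 to -0.5708 and -0.6517 to -0.481 for windows with nothing annotated minus ORF-Ts and minus CUTs and SUTs, and -0.4157 to -0.3603 for the highest minus the lowest level group. Without a wild-type library 7 splits remain, and the exact test cannot pass.

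Wild-type replicate 1 held 326870 window reads and had 126 empty windows, while cac1 replicate 1 held 338347 and had 8. Many of the largest falls had 1 to 5 window reads in a wild-type library. The part of depth in these changes was not tested.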
